A study of Mus musculus with 8 samples.

Results

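The 46 genes described here are the Wnt and Frizzled pathway genes listed for the embryonic mouse striatum, chosen by gene symbol from the 15705 genes of the deposited table. They comprise 10 Wnt ligands, 10 Frizzled receptors, the co-receptors Lrp5 and Lrp6, 2 R-spondins, 7 secreted inhibitors of the Sfrp and Dkk families, 6 cytoplasmic transducers, 4 TCF/LEF factors and 5 core planar polarity genes. The rule is by symbol only, and it was set with earlier results of these data known.

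The libraries were made from polyadenylated RNA of the lateral ganglionic eminence (LGE), the ventral forebrain structure that produces striatal projection neurons, in embryos at E18.5. The control group was 4 libraries of Isl1 flx/flx embryos without a recombinase, and the conditional knockout (cKO) group was 4 libraries of Dlx1-Cre; Isl1 flx/flx embryos. All 8 therefore carried the floxed alleles, and recombination was restricted to cells with a history of Dlx1-driven Cre. Since Cre was carried by the cKO group only, the presence of Cre and the loss of Isl1, a LIM-homeodomain transcription factor, cannot be told apart. The labels give neither the litter nor the sex of an embryo.

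Wnt proteins are secreted lipid-modified ligands that bind Frizzled receptors. With the co-receptors LRP5 or LRP6 they inhibit the Axin-containing complex that degrades beta-catenin, which then acts with TCF/LEF factors on target genes. Other Wnt ligands, such as Wnt5a and Wnt11, act largely without beta-catenin, and Frizzled, Celsr, Vangl and Dishevelled proteins also make up the planar polarity system that orients cells and axons. In the developing forebrain the pathway is known for roles in dorsal patterning, progenitor proliferation, vessel ingrowth and axon tract formation.

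Values are of 2 kinds. The adjusted value is the authors' scaled and rounded read value per gene and library. RPKM is that value relative to gene length and to the library's sum, and RPKM alone is used to compare genes. Fold changes are limma estimates on the log2(adjusted value + 1) scale, cKO against control, given with their SE, and p-values are Benjamini-Hochberg adjusted over the 15698 genes tested. An adjusted p under 0.05 is a call. One direction of variation had been removed from the deposited values within the groups, so SEs and p-values are too small to an unknown degree. Calls were therefore also read from a fit with that direction as a covariate.

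Isl1 itself was at 3777, 3692, 4186 and 3517 in control replicates 1 to 4 and at 4930, 5377, 5618 and 5971 in cKO replicates 1 to 4 (adjusted values). It was thus higher in the libraries labelled cKO, with a log2 fold change of 0.53 ± 0.06. The table gives 1 value for the gene and none by exon, so it does not check the deletion, and all directions below depend on the labels of the libraries being right. The sums of the adjusted values, between 23732455 and 24456923 per library, follow from the scaling, and sequencing depth is unknown. Control replicate 3 and cKO replicate 4 were lowest in the summed RPKM of 12 markers of pallial neurons, at 20.4 and 25.6 against 32.2 to 40.9 in the other 6 libraries. Of these markers Bhlhe22 rose in the cKO, from a mean of 0.773 to 4.07 RPKM, and none fell, and Emx2 was highest of its group in control replicate 3 (388) and cKO replicate 4 (386, adjusted values). Control replicate 1 was highest in the summed RPKM of 7 markers of choroid plexus and ependyma, at 131 against 9.22 to 14.4 in the others. Ttr was at 3462 there, against 17 to 141 in the others (adjusted values). Folr1, Clic6 and Kcne2 were also highest in that library, while Kl, Foxj1 and Aqp1 were not. Of 12 microglial markers 10 rose in the cKO, and their summed RPKM was 55.5 to 63.3 in the controls and 89.2 to 109 in the cKO. The summed RPKM of 10 striatal projection neuron markers was 551 to 582 in the controls and 478 to 500 in the cKO. Of these, 3 were lower (Tac1, Ppp1r1b and Rarb) and 2 higher (Drd2 and Adora2a). Drd1, Penk, Foxp1, Bcl11b and Gad1 did not pass. Tac1 alone went from a mean of 68.2 to 9.01 RPKM, so the sum does not describe the markers in common. None of 10 endothelial, 8 pericyte or 6 meningeal markers passed the test. No listed marker was at 0 in every library.

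Of the 46 genes, 3 rose in the cKO (Wnt5a, Wnt7a and Fzd1) and 1 fell (Wnt11). That is 8.7% of the genes, where 6.66% of all genes tested passed. By direction, 2.87% of all genes rose and 3.78% fell. Of the 46, 26 had a positive estimate (56.5%, against 52.4% of all genes), and the median log2 fold change was 0.03, against 0.01 over all genes. The adjusted values of the groups did not overlap for 7 of the 46 (15.2%, against 12.7% of all genes). With the missing direction as a covariate only Wnt11 and Wnt5a passed, where 4.77% of all genes did. In the authors' deposited table, where 6.55% of all genes passed, the members that passed were Wnt11, Wnt5a and Dkk2.

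**Figure D1:**
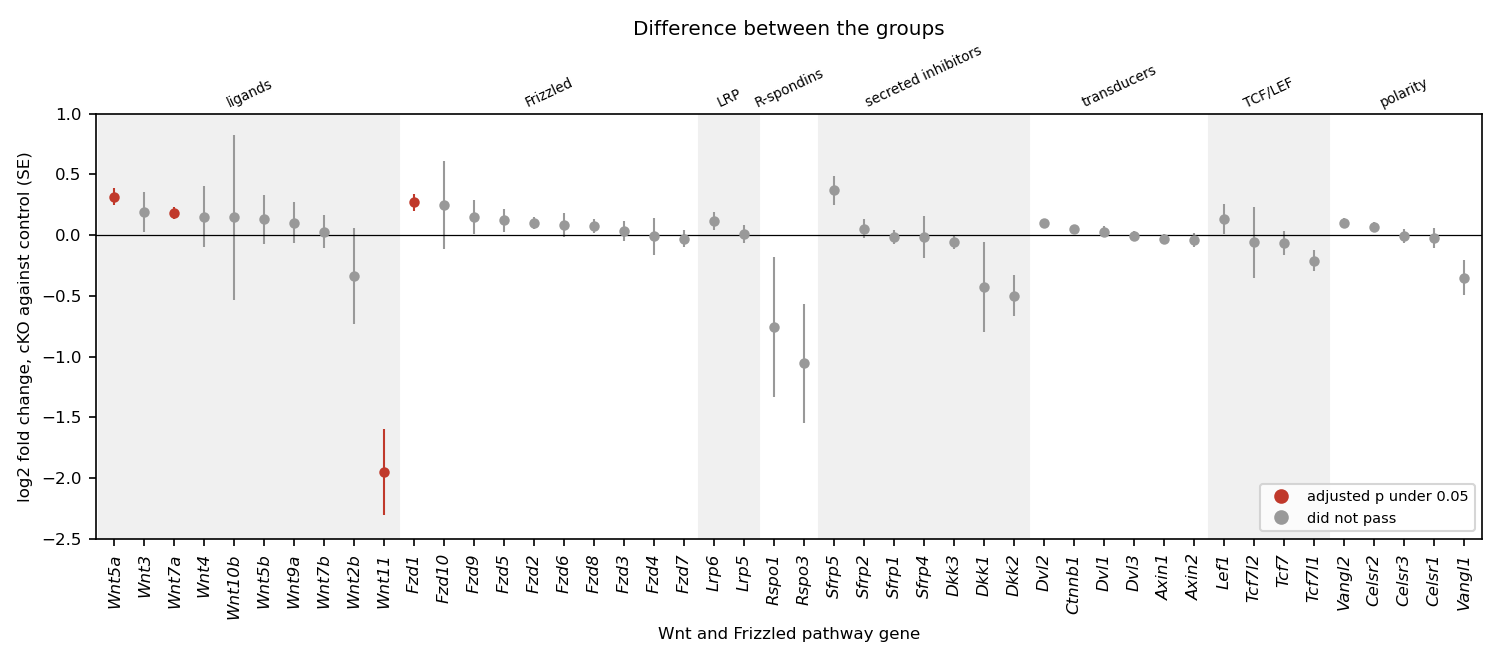
Log2 fold change of each of the 46 genes, cKO against control, by role and sorted within a role, with the SE as bars. Red points passed the test. Wnt11 lies lowest, at -1.95, and most other genes lie near 0, with 34 of the 46 within 0.2 of it.

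Levels differed widely between the genes. Beta-catenin (Ctnnb1) was the most abundant of the 46 per length, at a mean of 279 RPKM over the 8 libraries. Sfrp1 was the most abundant secreted inhibitor, at 39.2 RPKM, Celsr3 the most abundant polarity gene, at 27.9 RPKM, Fzd3 the most abundant receptor, at 22.5 RPKM, and Wnt7a the most abundant ligand, at 21.2 RPKM. A mean of 10 RPKM or more was reached by 14 genes, 18 lay between 1 and 10 RPKM, and 14 lay below 1 RPKM. The precision followed the level. The median SE of the log2 fold change was 0.05 in the most abundant class, 0.09 in the middle class and 0.30 in the lowest.

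**Figure D2:**
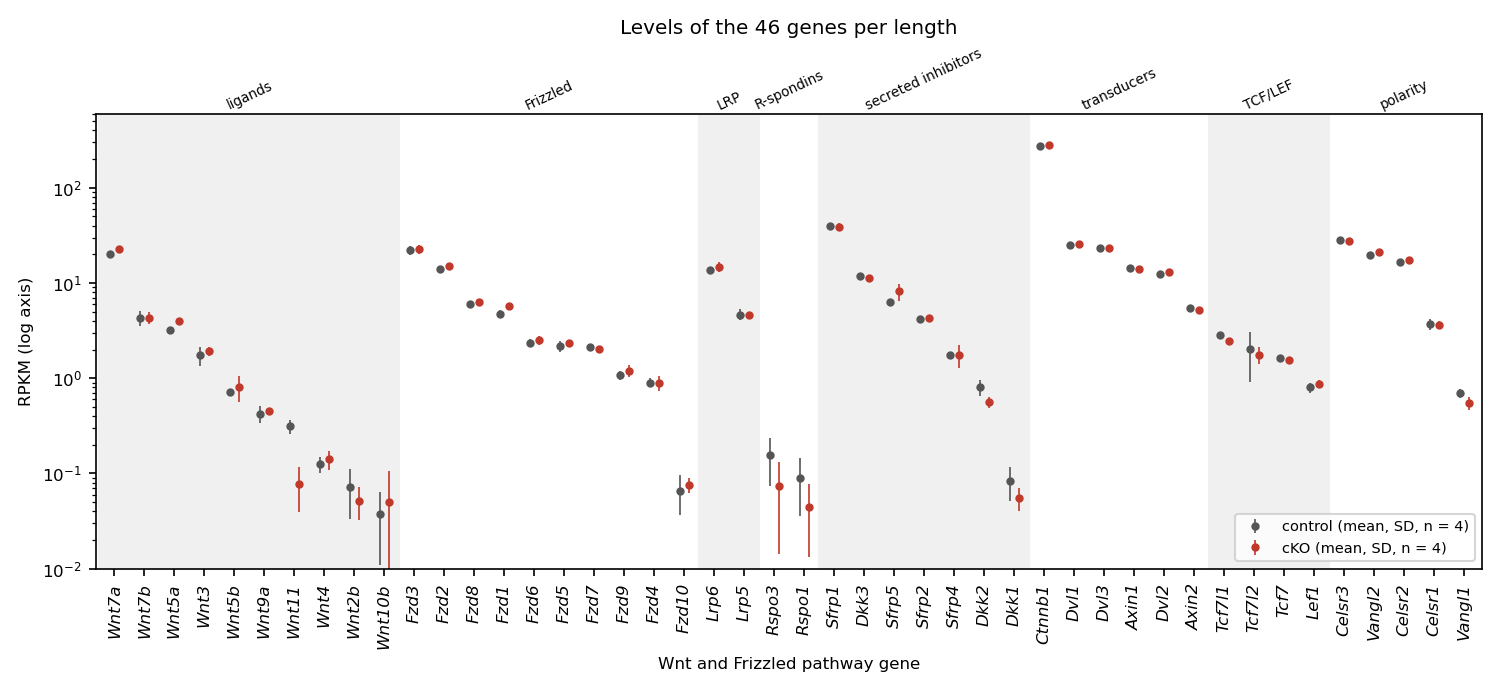
Mean RPKM of each of the 46 genes on a log axis in the control (grey) and cKO (red) libraries, with the SD over 4 libraries as bars, by role. Ctnnb1 is highest in both groups, Wnt10b is lowest in the controls and Rspo1 in the cKO, and the cKO bar of Wnt10b runs below the axis because its SD exceeds its mean.

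The fall of Wnt11 was the largest change among the 46. Wnt11 encodes a ligand known for beta-catenin-independent signalling in cell movement and organ morphogenesis. Its adjusted values were 21, 24, 30 and 21 in control replicates 1 to 4 and 7, 9, 2 and 6 in cKO replicates 1 to 4. Every cKO library lay below every control library. The mean went from 24 ± 4.24 to 6 ± 2.94 (SD, n = 4), 4-fold lower, with a log2 fold change of -1.95 ± 0.35 (limma adjusted p = 0.00574). Per length this was a low transcript in both groups, at 0.312 RPKM in the controls and 0.0776 RPKM in the cKO. In bulk tissue, fewer cells that carry a transcript and less of it per cell cannot be told apart. The call held in the 8 fits that left out a single library (adjusted p up to 0.0241) and with the missing direction as a covariate (adjusted p = 0.0114). Without control replicate 3 and cKO replicate 4, the pair with the lowest pallial signal, the log2 fold change was -1.89 and the limma adjusted p was 0.0534. The gene lies on chromosome 7 from 98835112 to 98855195, plus strand (GENCODE, GRCm38), and an annotated pseudogene, Gm8398, overlaps it on the opposite strand.

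A promoter window of Wnt11, the one with a motif match, and that of Wnt7a are shown because these ligands moved in opposite directions in the cKO. Each is the RefSeq window of 300 bases on GRCm38.p6, from 250 bases before the transcript start to 50 after it, written 5′ to 3′ on the gene's strand. Capitals mark matches to CTTTGAT or CTTTGAA, forms of the TCF/LEF recognition motif, or to CTAATG, a LIM-homeodomain motif, searched on both strands.
Wnt11, chr7:98834862-98835161, plus strand: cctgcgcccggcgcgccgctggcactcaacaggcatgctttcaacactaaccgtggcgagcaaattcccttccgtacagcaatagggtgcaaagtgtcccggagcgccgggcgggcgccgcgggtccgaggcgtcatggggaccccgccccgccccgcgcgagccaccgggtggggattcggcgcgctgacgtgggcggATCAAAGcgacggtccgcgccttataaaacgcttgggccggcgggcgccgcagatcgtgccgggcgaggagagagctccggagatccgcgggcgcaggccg
Wnt7a, chr6:91411304-91411603, minus strand: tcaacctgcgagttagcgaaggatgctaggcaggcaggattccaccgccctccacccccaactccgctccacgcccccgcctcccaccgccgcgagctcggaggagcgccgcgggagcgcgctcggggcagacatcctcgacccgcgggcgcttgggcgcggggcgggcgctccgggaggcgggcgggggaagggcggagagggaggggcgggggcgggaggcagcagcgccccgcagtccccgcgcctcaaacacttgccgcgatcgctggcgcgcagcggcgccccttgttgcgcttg
The printed Wnt11 window held 1 match, to CTTTGAT on the opposite strand, beginning 51 bases before the start site. The other Wnt11 window in the table, chr7:98838595-98838894 on the plus strand, held none, and neither did the Wnt7a window. Fzd1 had a window in the table with no match, and Wnt5a is among the members not matched there. Of the 46 genes, 31 were matched by symbol, with 40 windows, of which 3 (7.5%) held CTTTGAT or CTTTGAA, namely 1 each of Wnt11, Wnt5b and Dkk1. Among the 15228 windows of all genes listed in the table of values the share was 5.87%. CTAATG was in 1 of the 40 windows (2.5%), a window of Fzd5, against 4.98%. A match describes letters in the window and is no evidence of binding.

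Wnt5a, another ligand that acts largely without beta-catenin and guides growing axons, rose. The controls held adjusted values of 351, 319, 340 and 333, and the cKO libraries held 407, 451, 444 and 376. The lowest cKO library stood above the highest control. The mean rose from 336 ± 13.4 to 420 ± 34.8 (SD, n = 4), 1.25-fold, with a log2 fold change of 0.32 ± 0.07 (limma adjusted p = 0.0201). Wnt5a kept its call with the missing direction as a covariate (adjusted p = 0.0464) and without the pair of libraries with the lowest pallial signal (0.0281). Leaving out control replicate 2, control replicate 4, cKO replicate 2 or cKO replicate 3 ended the call, at limma adjusted p from 0.0525 to 0.0685, as did the RPKM columns (0.0513). Wnt5a lies on chromosome 14 from 28504750 to 28527448, plus strand, where an antisense gene, Gm2670, overlaps it. No source used here says whether the counting used strand, so reads of such partners may be shared.

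Wnt7a, a ligand of the forebrain germinal zone known for beta-catenin signalling to brain endothelium, was the most abundant Wnt transcript and rose slightly. Its adjusted values were 1469, 1474, 1607 and 1559 in the controls and 1843, 1631, 1711 and 1747 in the cKO. The groups did not overlap, although control replicate 3 and cKO replicate 2 came close. The log2 fold change was 0.18 ± 0.05, or 1.13-fold between the means (limma adjusted p = 0.043). The call was lost with the missing direction as a covariate (adjusted p = 0.0865), with median-of-ratios scaling (0.0619), with the RPKM columns (0.0583) and in 6 of the 8 fits that each left out a library, all but those without control replicate 3 and without cKO replicate 2 (adjusted p from 0.0746 to 0.114). Wnt7a made up 61.6% to 69% of the summed RPKM of the 10 ligands in each library, and its mean share was 64.7% in the controls and 65.6% in the cKO. The share of Wnt5a was 9.74% to 11.3% in the controls and 10.8% to 12.4% in the cKO, and that of Wnt11 was 0.868% to 1.25% and 0.0746% to 0.339%.

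Wnt7b, the closest relative of Wnt7a, varied more between libraries than between the groups. Its adjusted values were 433, 542, 352 and 494 in the controls and 445, 523, 508 and 374 in the cKO. The lowest library of each group was the one lowest in pallial markers, control replicate 3 and cKO replicate 4. The highest library of each group, replicate 2 of both, was also the highest of its group in those markers, at 38.9 and 40.9 RPKM. Between the groups the log2 fold change was 0.03 ± 0.14, with a 95% interval from -0.27 to 0.33 (adjusted p = 0.945). The part of pallial tissue in these values was not tested.

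**Figure D3:**
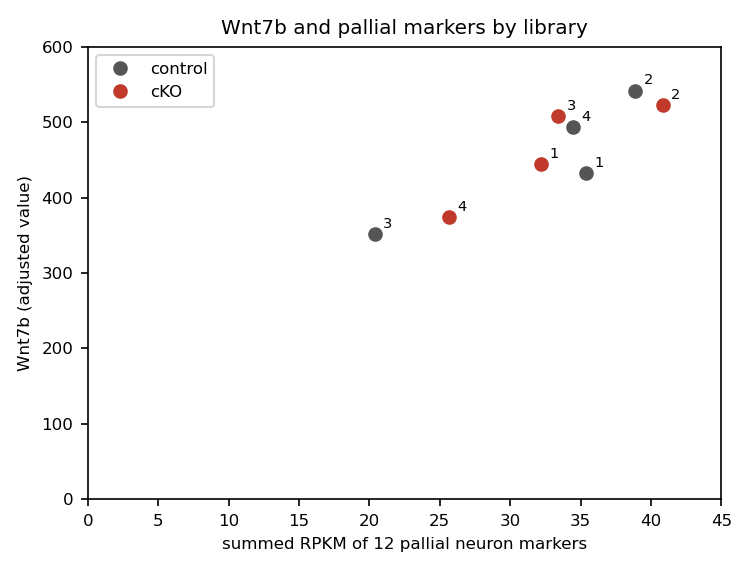
Adjusted value of Wnt7b against the summed RPKM of 12 pallial neuron markers in the 8 libraries, control in grey and cKO in red, each point numbered by replicate. Control replicate 3 and cKO replicate 4 are lowest on both axes.

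The remaining 6 ligands did not pass. Wnt3, named here for its spread, was at 87, 149, 149 and 137 in the controls and 151, 162, 147 and 126 in the cKO (adjusted values). Control replicate 1, the library highest in the summed choroid plexus and ependyma markers and in Ttr, stood lowest. Wnt5b and Wnt9a were below 1 RPKM in both groups, and Wnt4, Wnt2b and Wnt10b lay between 0.0371 and 0.14 RPKM in either group. Their log2 fold changes lay between -0.33 and 0.19, and for Wnt10b the SE reached 0.68.

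Among the 10 Frizzled receptors, Fzd1 rose and none fell. Fzd1, which binds several Wnt ligands, was at adjusted values of 563, 474, 461 and 504 in the controls and 611, 627, 617 and 558 in the cKO. The groups overlapped, since control replicate 1 lay above cKO replicate 4. The mean went up from 500.5 ± 45.4 to 603 ± 30.9 (SD, n = 4), which is 0.27 ± 0.07 on the log2 scale (limma adjusted p = 0.0394). Permuting the group labels of these values exhaustively gave p = 0.0571 (exact, two-sided). The call was lost with the missing direction as a covariate (adjusted p = 0.0758), with median-of-ratios scaling (0.0566), with libraries scaled to the same sum (0.065) and with the RPKM columns (0.0974). It was also lost without any single library other than control replicate 1 and cKO replicate 4 (limma adjusted p from 0.0729 to 0.11).

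Fzd3, the most abundant of the receptors and, with Celsr3, known for its need in forebrain axon tracts, was even between the groups. Its adjusted values were 7678, 6154, 6569 and 7033 in the controls and 8128, 6816, 6236 and 6969 in the cKO. Replicate 1 was the highest of each group. The log2 fold change was 0.04 ± 0.08, with a 95% interval from -0.14 to 0.21. Fzd2 had adjusted values of 1275, 1142, 1259 and 1219 in the controls and 1358, 1245, 1308 and 1339 in the cKO, a log2 fold change of 0.10 ± 0.05 that did not pass (limma adjusted p = 0.278). The other 7 receptors had log2 fold changes between -0.03 (Fzd7) and 0.25 (Fzd10), none of which passed. Of these, Fzd8 reached about 6 RPKM in both groups, Fzd4, Fzd5, Fzd6, Fzd7 and Fzd9 lay between 0.897 and 2.5 RPKM, and Fzd10 was lowest, at 0.071 RPKM over all libraries. In all, 8 of 10 receptor estimates were positive (80%, against 52.4% of all genes), with a median of 0.09. Whether the receptors moved as a family was not tested.

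Neither LRP co-receptor passed. Lrp6 was the more abundant per length, at 13.6 ± 0.878 RPKM in the controls and 14.7 ± 1.7 RPKM in the cKO (SD, n = 4). Its adjusted values were 3156, 2815, 3197 and 3139 in the controls and 3854, 3282, 2920 and 3343 in the cKO, with a log2 fold change of 0.12 ± 0.07 (limma adjusted p = 0.444). Lrp5 was at 675, 504, 578 and 570 in the controls and 605, 568, 584 and 572 in the cKO, a log2 fold change of 0.01 ± 0.08. Lrp5 values overlapped throughout, and control replicates 1 and 2 spanned the whole range.

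R-spondins, secreted proteins that amplify Wnt signalling by removing the ubiquitin ligases ZNRF3 and RNF43 from the membrane, were near the lower end of the measurable range. Rspo3 was at 6, 16, 8 and 6 in the controls and 1, 9, 4 and 3 in the cKO (adjusted values). The groups overlapped, and the log2 fold change of -1.06 ± 0.49 did not pass (limma adjusted p = 0.278). Rspo1 was at 3, 6, 1 and 6 in the controls and 3, 0, 2 and 3 in the cKO, a log2 fold change of -0.76 ± 0.58. At values this low a fall of the size seen for either gene could not be separated from the spread in the limma fit. In the authors' deposited table the adjusted p was 0.0752 for Rspo3 and 0.618 for Rspo1, so neither passed there.

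None of the 7 secreted inhibitors passed. Secreted Frizzled-related proteins bind Wnt ligands outside the cell, and Dickkopf proteins such as DKK1 and DKK2 bind the LRP co-receptors. Sfrp1 was the most abundant inhibitor, with adjusted values of 4168, 3974, 4375 and 4132 in the controls and 3990, 3727, 4587 and 4237 in the cKO. Its log2 fold change was -0.01 ± 0.06, with a 95% interval from -0.14 to 0.11. Dkk3, a divergent family member, was at 1021, 942, 921 and 943 in the controls and 936, 924, 854 and 958 in the cKO, a log2 fold change of -0.06 ± 0.05.

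Sfrp5 had the smallest p of the inhibitors. It was at 290, 299, 298 and 263 in the controls and 360, 361, 301 and 484 in the cKO (adjusted values). The groups did not overlap, but cKO replicate 3 lay only just above the highest control and cKO replicate 4 stood well above the rest. The log2 fold change of 0.37 ± 0.12 did not pass (limma adjusted p = 0.107), and it passed without cKO replicate 3 (0.0352). Dkk2, picked out after its values were seen, was at 84, 81, 53 and 70 in the controls and 48, 47, 45 and 61 in the cKO. Its lowest control was replicate 3 and its highest cKO library replicate 4, again the pair lowest in pallial markers, and these alone made the groups overlap. The log2 fold change was -0.50 ± 0.17 (limma adjusted p = 0.121) with all libraries and -0.73 without that pair (adjusted p = 0.0224), and it passed without control replicate 3 alone (0.0375). In the authors' deposited table Dkk2 had an adjusted p of 0.0398. Sfrp2, Sfrp4 and Dkk1 had log2 fold changes of 0.05, -0.02 and -0.43, the last at a mean adjusted value of 4.5 in the controls.

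**Figure D4:**
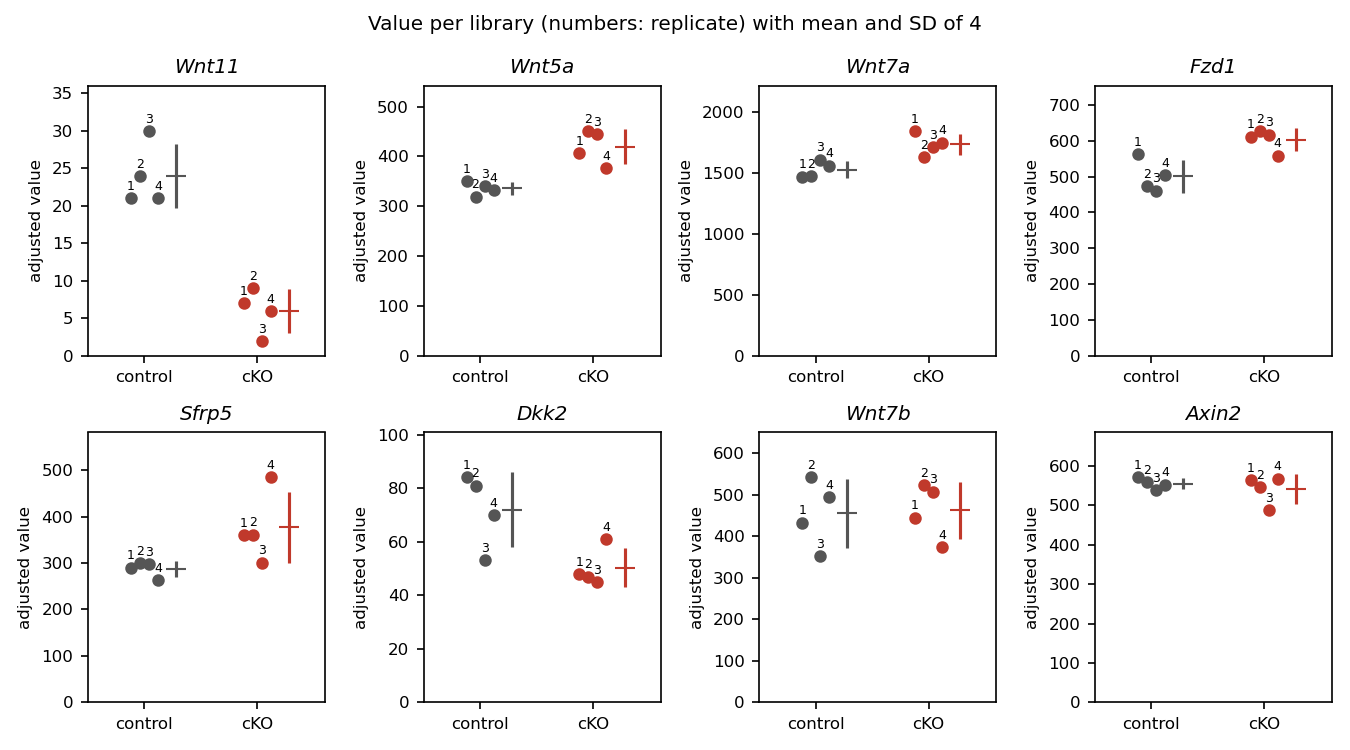
Adjusted values of 8 of the genes in each library, control in grey and cKO in red, numbered by replicate, with the mean and SD of 4 libraries beside the points and each axis starting at 0. Wnt11, Wnt5a, Wnt7a and Sfrp5 show no overlap, Fzd1 and Dkk2 overlap slightly, and Wnt7b and Axin2 overlap.

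The 6 cytoplasmic transducers had log2 fold changes between -0.04 and 0.10 and no call. Beta-catenin, which carries the signal to the nucleus and also joins cadherins to the cytoskeleton, was at 23825, 24127, 24039 and 24192 in the controls and 25149, 25500, 24594 and 24276 in the cKO. All cKO values were above all control values, yet the log2 fold change was only 0.05 ± 0.03 and did not pass (limma adjusted p = 0.474). Dvl2, a Dishevelled protein acting just below Frizzled, was at 864, 888, 871 and 868 in the controls and 924, 950, 921 and 939 in the cKO. The groups did not overlap, and the log2 fold change of 0.10 ± 0.04 did not pass (limma adjusted p = 0.195). Dvl1 was at 2254, 2045, 2057 and 2024 in the controls and 2056, 2210, 2104 and 2167 in the cKO, a log2 fold change of 0.03 ± 0.04.

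Axin2, a scaffold of the degradation complex and a widely used target gene of beta-catenin signalling, was named for that role after its values were seen. It held adjusted values of 571, 559, 539 and 553 in the controls and 565, 546, 488 and 568 in the cKO. These overlapped except for cKO replicate 3, which was lowest. The log2 fold change was -0.04 ± 0.06, with a 95% interval from -0.17 to 0.09. Axin1 was at -0.03 ± 0.04 and Dvl3 at -0.0041 ± 0.04 on the same scale.

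The 4 TCF/LEF factors, which bind DNA and recruit beta-catenin, lay between 0.799 and 2.84 RPKM in either group, and none passed. Tcf7l1, mainly a repressor, was at adjusted values of 216, 185, 191 and 197 in the controls and 166, 175, 186 and 155 in the cKO. Only control replicate 2 and cKO replicate 3 overlapped, and the log2 fold change was -0.21 ± 0.09 (limma adjusted p = 0.218). Tcf7l2, known for its high level in thalamic neurons, was at 131, 404, 153 and 210 in the controls and 152, 201, 186 and 253 in the cKO. Control replicate 2 stood far above the rest, and the log2 fold change was -0.06 ± 0.29. The same library was the highest of all in 8 listed thalamic markers, at 29.1 RPKM against 24.4 to 28.1 in the others, a narrow margin. The markers did not move together there: Gbx2, Slc17a6, Ntng1, Tnnt1 and Calb2 were highest of the 8 libraries, while Prox1 was lowest, tied with control replicate 1, and Rora was next to lowest. Gbx2 fell in the cKO, with a log2 fold change of -1.81 ± 0.34 (limma adjusted p = 0.00649), and the other 7 markers did not pass. Their part in the Tcf7l2 value was not tested. Lef1 and Tcf7 had log2 fold changes of 0.13 ± 0.12 and -0.07 ± 0.10.

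None of the 5 core polarity genes passed. Celsr3, a cadherin-type receptor needed for axon tracts, was at 8028, 7493, 7409 and 8261 in the controls and 8664, 7217, 7686 and 7525 in the cKO (adjusted values), with a log2 fold change of -0.01 ± 0.06. Vangl2, a membrane protein of the planar polarity system, was at 2796, 2611, 2663 and 2770 in the controls and 3104, 2909, 2811 and 2819 in the cKO. Every cKO value was higher than every control value, but the log2 fold change of 0.10 ± 0.04 did not pass (limma adjusted p = 0.204). Its paralogue Vangl1, at 0.622 RPKM against 20.4 RPKM for Vangl2, had a log2 fold change of -0.35 ± 0.14 in the opposite direction (adjusted p = 0.214). Celsr1 and Celsr2 were at -0.02 ± 0.08 and 0.07 ± 0.04.

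Around these genes, 121 other pathway genes were listed, of which 112 were found in the deposited table. In the cKO 3 rose and 6 fell, 8.04% of the 112, where 6.66% of all genes passed, and the median log2 fold change was 0.02. Some act outside the Wnt pathway as well. Of 10 genes of ligand secretion and capture, Wls rose and Gpc3 fell. Wls encodes the carrier that Wnt proteins need to leave the cell, and its adjusted values went from 693, 676, 736 and 694 in the controls to 854, 871, 797 and 810 in the cKO. The groups did not overlap, and the log2 fold change was 0.25 ± 0.05 (limma adjusted p = 0.00895, and 0.0263 with the missing direction as a covariate). Gpc3, an X-linked gene for a heparan sulphate proteoglycan that binds Wnt and Hedgehog ligands, fell from 88, 124, 92 and 95 to 45, 51, 55 and 65. The cKO values all lay below the controls, with a log2 fold change of -0.87 ± 0.15 (limma adjusted p = 0.00429).

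Among 12 further secreted or membrane inhibitors, 3 fell and 1 rose, where 3.78% of all genes fell and 2.87% rose. The list is short, was chosen with earlier results of these data known, and was not tested as a set. Tpbg, a leucine-rich membrane glycoprotein that restrains LRP6 signalling, was at 728, 547, 596 and 636 in the controls and 451, 411, 463 and 399 in the cKO, a log2 fold change of -0.53 ± 0.09. Igfbp4, which binds insulin-like growth factors and has been described as a Wnt antagonist, fell by 0.21 ± 0.04 on the log2 scale. Draxin, a repulsive axon guidance protein that can also antagonise Wnt signalling, fell by 0.14 ± 0.04 (limma adjusted p = 0.0462). Its call was lost with the missing direction as a covariate (0.105) and without any single library other than replicate 1 of either group (adjusted p from 0.0874 to 0.164). In the authors' deposited table Draxin had an adjusted p of 0.285. Nog, the riser, encodes noggin, an antagonist of BMP rather than Wnt ligands. It was at 110, 98, 95 and 95 in the controls and 144, 151, 169 and 170 in the cKO, a log2 fold change of 0.67 ± 0.10 (limma adjusted p = 0.00143).

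Inside the cell, Dact1, a Dishevelled-binding modulator of both branches of the pathway, was the call among 26 genes of the degradation complex and its regulators. Its adjusted values rose from 1683, 1918, 2034 and 1930 to 2584, 2447, 2360 and 2418. The groups were well apart, with a log2 fold change of 0.38 ± 0.06 (limma adjusted p = 0.00143, and 0.00274 with the missing direction as a covariate). Ankrd6, the Dishevelled partner diversin, fell by 0.27 ± 0.06 and was the call among 26 genes of the polarity and calcium branches. None of 21 nuclear co-regulators passed. Tle4, a Groucho-type co-repressor, came closest, at 0.16 ± 0.04 (adjusted p = 0.0501), and it passed with either other scaling (0.0413 and 0.0404) and without cKO replicate 1 (0.0283). Tle4 also passed with a pseudocount of 4 (limma adjusted p = 0.0485), a stricter filter (0.0478) and the replicate block (0.0392). It did not pass with the missing direction as a covariate or without any other single library. In the authors' deposited table Tle4 had an adjusted p of 0.244. None of 9 further receptors and receptor-turnover genes passed. The smallest p there was that of Znrf3, at -0.21 ± 0.08 (limma adjusted p = 0.177).

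Among 14 genes reported as transcriptional targets of the pathway, 1 fell and none rose. The faller was Tnfrsf19, a TNF receptor family member, at 1637, 1286, 1359 and 1544 in the controls and 1260, 1034, 1226 and 1035 in the cKO, a log2 fold change of -0.35 ± 0.09 (limma adjusted p = 0.0324). Leaving out control replicate 1, control replicate 4, cKO replicate 2 or cKO replicate 4 ended the call (adjusted p from 0.0863 to 0.105), as did the RPKM columns (0.0658). Axin2, Lef1 and Znrf3, which beta-catenin signalling is known to induce in many tissues, did not pass. Without control replicate 3 and cKO replicate 4, Wls, Nog, Dact1, Gpc3 and Tpbg kept their calls. Igfbp4 (adjusted p = 0.0888), Ankrd6 (0.0579), Draxin (0.263) and Tnfrsf19 (0.132) lost theirs, as did Wnt11 (0.0534), Wnt7a (0.107) and Fzd1 (0.0959). That fit had 1 library fewer in each group. Its log2 fold changes, in the same order, were -0.18, -0.20, -0.11, -0.34, -1.89, 0.20 and 0.27. Whether the calls were lost through fewer libraries or through the pallial signal of that pair was not tested. The rise in microglial markers given above separates the groups in the same way as the rises of Wnt5a, Wnt7a, Wls, Nog and Dact1, and its part in them was not tested.

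**Figure D5:**
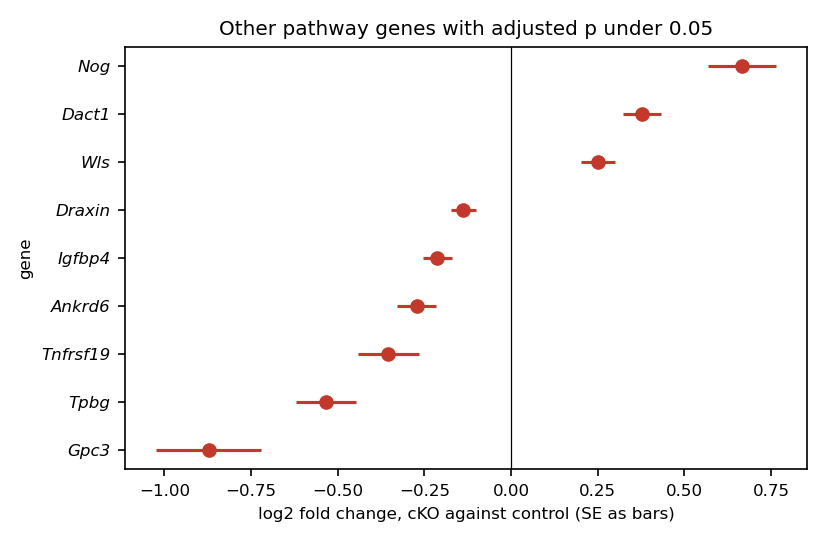
Log2 fold change, cKO against control, of the 9 other pathway genes that passed the test, with the SE as bars. Nog, Dact1 and Wls lie above 0, and Gpc3 is lowest, at -0.87.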

How the data were processed

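Poly(A) RNA of 8 LGE samples was measured, 4 per group, grouped by the sample labels. STAR, featureCounts, edgeR and build mm10 are named in the submitters' processing notes, without versions. The deposited columns named as raw hold a score, not counts: their upper quartiles were 1624 to 1635, and 1 direction within the groups had a singular value of 0.000241 against 0.0433 for the next. The deposited RPKM columns scale the same values to library sum and gene length. The authors' log2 fold changes and p-values served as an alternative, and their sign is that of cKO over control.

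Values entered limma 3.58.1 (R 4.3.3, mean trend) as log2(value + 1), for genes with at least 1 in 4 or more libraries (15698 genes, 7 left out). The procedure was also run on simulated data with independent noise per gene and library. No direction was removed there, so that run cannot check the SEs of the deposited values. SDs are over 4 libraries and 95% intervals come from the limma fit. Exact permutation tests enumerate 70 assignments. Coordinates are from GENCODE M21 on GRCm38, and promoter windows from RefSeq on GRCm38.p6. Members, roles and lists were chosen with earlier results of these data known. Named were members that passed, the 2 most abundant and the smallest p of each role, and other pathway genes that passed or had the smallest p of a list. The alternatives covered pseudocount, filter, scaling, RPKM, the missing direction, a replicate block and libraries left out.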

Additional observations from a re-analysis of the deposited data

Results flagged for a closer look

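In 4 of the groups of 4 libraries tested, 1 adjusted value stood apart from the other 3 of its gene and group, by a gap larger, relative to the group's range, than Dixon's criterion at the 95% level allows. Chance alone gives such a gap in about 1 of 20 groups, and 92 groups were tested. Dvl1 was at 2254 in control replicate 1, above 2045, 2057 and 2024. Lrp6 was at 2815 in control replicate 2, below 3156, 3197 and 3139. Wnt5b was at 50 in control replicate 3, above 45, 44 and 44. Fzd10 was at 4 in cKO replicate 2, below 6 in each of the other libraries of its group.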

How the results depend on the processing

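Against 3 rises and 1 fall among the 46 genes, the rises numbered 1 with median-of-ratios scaling, 1 with the missing direction as a covariate, 1 without control replicate 3 and cKO replicate 4, 1 in the authors' table and 0 with the RPKM columns. Of all genes, 6.66% passed in the main fit, 4.77% with the covariate and 6.55% in the authors' table. The share under the other settings was not computed, so the counts below and above cannot be set against it there. Leaving out 1 library at a time gave 0 to 2 rises, with 0 without control replicate 2 or 4 and 1 without cKO replicate 1, 2 or 3, and 1 to 2 falls, with 2 without control replicate 3. These are not always the genes of the main fit. Without cKO replicate 3 the riser was Sfrp5, and without control replicate 3 Dkk2 fell beside Wnt11. Without control replicate 3 and cKO replicate 4 the faller was Dkk2, not Wnt11. The authors' table held 2 falls. Among the other pathway genes, against 3 rises and 6 falls, leaving out 1 library gave 3 to 5 rises, with 5 without cKO replicate 1, and 4 to 8 falls. Without control replicate 3 and cKO replicate 4 there were 2 falls. The cause of these differences was not tested. With the replicate block the other pathway genes held 6 rises, and the 46 genes held 3 rises and 1 fall. Whether the labels' numbers pair the libraries is unknown. The correlation of same-numbered deviations was 0.41 for replicate 1 and -0.17, -0.49 and -0.77 for replicates 2 to 4. It cannot decide this, because the deviations were centred within each group and 1 direction had been removed from the values. Over 1077 values of 57 genes under the alternatives, no call changed its direction, 47 lost and 10 gained a call, and 42 values of genes that passed on neither side changed sign. Depth is unknown, and genes below 1 RPKM carry SEs of up to 0.68.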
